A study of Mus musculus with 2 samples.

Results

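Ifi30 and 8 genes of lysosomal antigen processing (Ctss, Ctsb, Ctsh, Ctsl, Ctsz, Ctsd, Lgmn and Lamp1) were followed in B cells of mouse peripheral lymph nodes. The members are all probes that are not controls and whose gene name in the scanner files is 1 of these 9 symbols, which gave 9 genes of 27597 and 12 probes of 41174 on the array. Another 0 probes matched a member through their accession under a different name. The genes were chosen with the comparison of the genotypes known, Ifi30 because it was higher in the knock-out, so the members' ratios are given as a description and without a test.

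The Ccr7 knock-out group was B cells of mice of the strain B6.129P2(C)-Ccr7tm1Rfor/J, whose targeted allele is carried in every cell of the animal, and the wild-type group was B cells of C57BL/6J mice. CCR7 is a chemokine receptor through which lymphocytes and dendritic cells home to lymph nodes. Cells of both groups were sorted by flow cytometry and lysed without culture; the sources used here do not give the gate. The 6 RNA samples of each genotype were combined in pools of 3, and 2 two-colour arrays each held 1 knock-out pool beside 1 wild-type pool, with the knock-out in Cy5 on array 1 and in Cy3 on array 2. Each array is therefore 1 replicate (n = 2). Nothing in the labels says which sorted samples came from separate mice, so the spread given here is that between the 2 pairs of pools.

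Antigen-presenting cells take proteins into acidic endosomes and lysosomes, where disulphide bonds are reduced, cathepsins cut the chains, and peptides are loaded on MHC class II. Ifi30 encodes GILT, the thiol reductase of this compartment, which is inducible by interferon gamma. The cathepsins S, B, H, L and Z are cysteine proteases of the papain family. Cathepsin D is an aspartic protease, legumain (Lgmn) cuts after asparagine, and Lamp1 is a heavily glycosylated protein of the lysosomal membrane. In B cells, cathepsin S is known for the last cuts of the invariant chain that blocks the class II groove.

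The sequence measured for Ifi30, on which the clearest difference rests, is given first, together with both probes of Ctsz, which lie apart in the gene and allow a repeat measurement. They are printed as the files give them, in lower case without capitals because the whole run hybridises. Positions are on mm8, minus strand: chr8:73692837-73693563 for Ifi30, chr2:174070666-174070725 for the first Ctsz probe and chr2:174071522-174071581 for the second. The Ifi30 probe of 60 bases is placed over 727 bases of genome, so its match is interrupted by at least 1 intron.
Ifi30 probe: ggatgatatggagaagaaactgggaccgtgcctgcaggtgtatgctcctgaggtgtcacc
Ctsz probe 1: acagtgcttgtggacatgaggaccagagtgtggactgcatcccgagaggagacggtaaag
Ctsz probe 2: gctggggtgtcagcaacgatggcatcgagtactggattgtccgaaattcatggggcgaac

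Spots well above background made up 68.2% and 58.4% in the knock-out channels of arrays 1 and 2, against 63.1% and 68.8% in the wild-type channels. No spot was saturated. For very bright spots the scanner program replaced the reading by one taken at low gain and scaled it up, and 9.21% of the 17683 genes tested rested on such a probe. The Ccr7 probe gave log2 ratios of knock-out over wild type of -1.11 and -0.74 on the arrays, and whether it lies in the deleted part is not stated in the labels. At a limma adjusted p of 0.05, 18 genes (0.102%) were called, 12 of them higher (0.0679%) and 6 lower (0.0339%). That count was 0 on the deposited value table and 130 without the scaled-up genes. All 11 B-cell markers listed (among them Cd79a and Ms4a1) were well above background in all channels. On both arrays 3 of them were higher in the knock-out, beside 24.2% of all genes. Pax5 (-0.79 and -0.86) alone was lower on both, beside 30.0%, and 7 had opposite signs, beside 45.8%.

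All 12 member probes were well above background in both channels of both arrays. Levels are log2 intensities after background correction, loess within each array and quantile scaling of mean intensity between arrays, and a level of 1 probe is not comparable with that of another. A summed level of a marker list adds the intensities, not in log2, of its genes on the array. Genes not well above background enter it too, and the brightest probes weigh most. Differences are log2 ratios of knock-out over wild type within an array. Overlap of the genotypes is read from the levels of both arrays together. It leaves out the pairing within an array and also depends on how the arrays differ in intensity. Bulk RNA cannot tell fewer cells of a type from less RNA per cell.

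Ifi30 had the largest mean difference of the members. Its level was 15.15 and 15.93 in the knock-out pools of arrays 1 and 2, against 14.53 and 14.79 in the wild-type pools. Both knock-out values lay above both wild-type values. The log2 ratio was 0.62 on array 1 and 1.14 on array 2, a mean of 0.88 ± 0.37 (SD, n = 2), or 1.84-fold higher in the knock-out. The arrays thus differed in size, 1.54-fold against 2.20-fold, and shared the direction.

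The position of Ifi30 among all genes can be described without a test. Ifi30 was chosen because this ratio was high, so a high rank comes with the choice and is no support. Of the 17683 genes, 29 (0.164%) had a larger mean ratio, and 89 (0.503%) had on the deposited value table. Among the 501 genes nearest to it in intensity, Ifi30 included, 2 had a larger mean, and the SD of the mean ratio in that set was 0.21. The 5th and 95th percentiles of the mean ratio over all genes were -0.37 and 0.29.

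All 4 Ifi30 channels were read at low gain and scaled up. The scanner's mean signals before any normalization were 51523 in the knock-out (Cy5) and 25672 in the wild type (Cy3) on array 1. On array 2 they were 31889 in the knock-out (Cy3) and 38866 in the wild type (Cy5). The wild-type signal was thus the higher one on array 2 before normalization, where Cy5 exceeded Cy3 by a median of 1.78-fold over all probes kept, against 1.22-fold for Ifi30. On array 1 the corresponding values were 1.04-fold for all probes and 2.01-fold for Ifi30. The deposited value table, which differed from the scanner program's ratio only at scaled-up spots, gave Ifi30 log2 ratios of 0.58 and 1.17, with a mean of 0.88. The scanner program's own ratios for Ifi30 were 0.47 and 1.26, with a mean of 0.86.

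**Figure D1:**
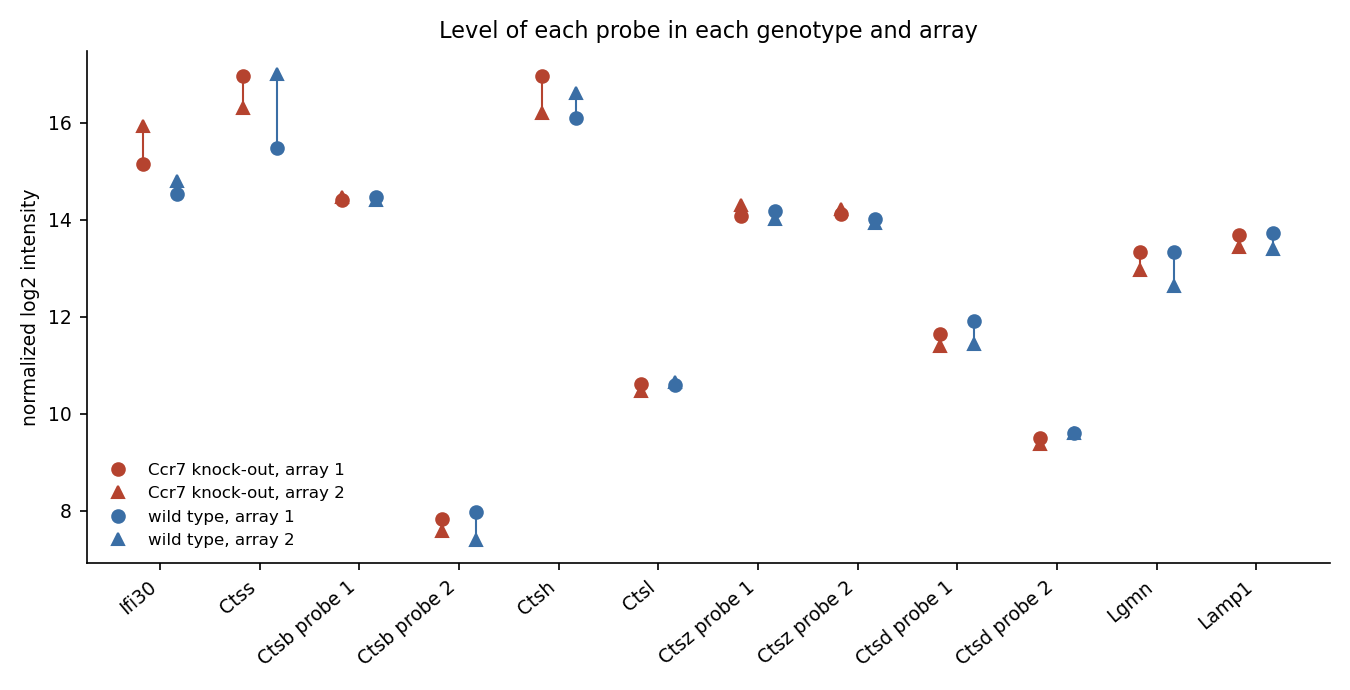
Normalized log2 intensity (vertical axis) of the 12 member probes in the Ccr7 knock-out (red, left of each pair) and the wild type (blue), with circles for array 1, triangles for array 2 and a line joining both pools of a genotype. The knock-out values of Ifi30 (15.15 and 15.93) lie above its wild-type values (14.53 and 14.79), while Ctss and Ctsh change order between the arrays.

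Cathepsin S, the protease nearest to the loading of class II in B cells, gave ratios of opposite sign on the arrays. Its level was 16.95 and 16.31 in the knock-out pools, against 15.48 and 17 in the wild-type pools. The knock-out was the higher one on array 1 and the lower one on array 2, and the groups overlapped. The log2 ratios were 1.47 and -0.69, with a mean of 0.39 ± 1.53 (SD, n = 2), so the difference was far smaller than the spread between arrays.

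The Cy5 signal of Ctss was the higher one on both arrays, whichever genotype it carried. The scanner's mean signals were 163845 in the knock-out (Cy5) and 41418 in the wild type (Cy3) on array 1, and 44851 in the knock-out (Cy3) and 213699 in the wild type (Cy5) on array 2. Cy5 exceeded Cy3 by 3.96-fold and 4.76-fold on the arrays. On the deposited value table the log2 ratios of Ctss were 0.40 and 0.20, with a mean of 0.30 ± 0.14 (SD, n = 2). By the scanner program's own ratio they were 0.97 and -0.34, with a mean of 0.32. The mean of Ctss was thus 0.39 from the loess-normalized intensities and 0.30 on the deposited value table. Its sign on array 2 was positive on the deposited value table and negative by the other 2 readings.

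Ctsh, an aminopeptidase among the cathepsins, had the same pattern at a smaller size. Its level was 16.96 and 16.19 in the knock-out pools, against 16.09 and 16.62 in the wild-type pools, and the groups overlapped. The log2 ratios were 0.87 and -0.43, with a mean of 0.22 ± 0.92 (SD, n = 2). On the deposited value table they were -0.05 and -0.11, so the sign of the mean turned (-0.08 ± 0.04, SD, n = 2). By the scanner program's own ratio they were 0.36 and -0.16, signs as from the loess-normalized intensities.

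Ctss and Ctsh are among the brightest probes of the array, and genes of that brightness shared the pattern. Of the 103 genes at least as bright as Ctsh, 100 were higher in the knock-out on array 1 and lower on array 2. Over all genes 45.8% had opposite signs on the arrays. In the deposited values, 66 of the 103 had opposite signs, against 44.1% of all genes. The B-cell markers Ms4a1 (1.75 and -1.23 on the arrays) and Cd79b (1.45 and -1.52) behaved likewise. A difference between pool pairs and an effect of the dye at high signal cannot be told apart for these genes with 1 array per orientation.

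**Figure D2:**
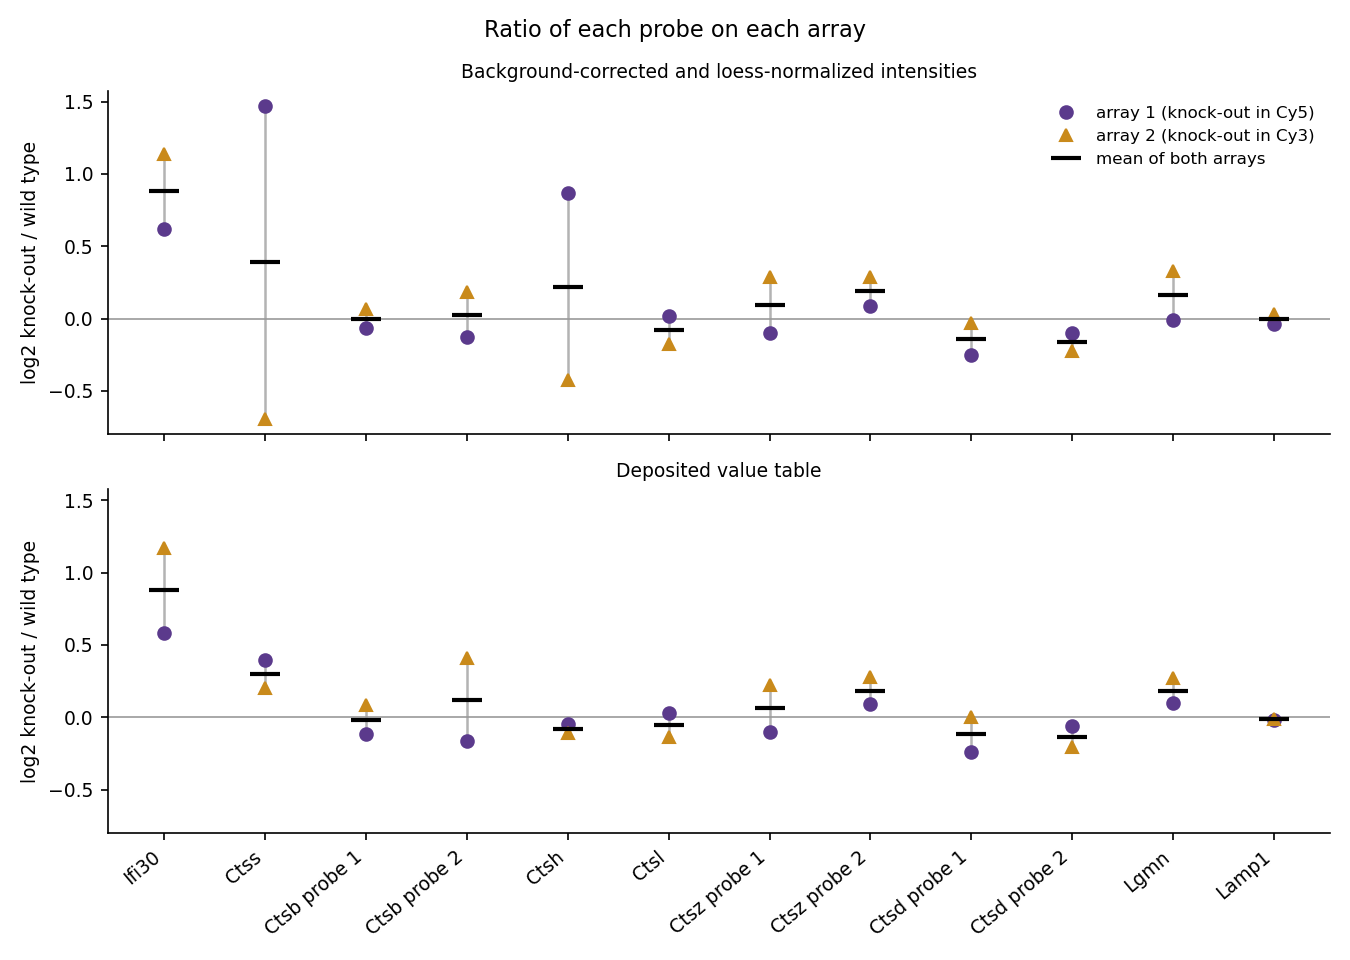
Knock-out over wild type on a log2 scale (vertical axes) for each member probe on array 1 (circles) and array 2 (triangles), with the mean as a bar, from loess-normalized intensities (upper panel) and from the deposited value table (lower panel). Ifi30 is at 0.62 and 1.14 in the upper panel and at 0.58 and 1.17 in the lower, whereas Ctss moves to 0.40 and 0.20 in the lower panel, against 1.47 and -0.69 in the upper.

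Cathepsin B, a cysteine protease with both endopeptidase and exopeptidase activity, was level between the genotypes within the spread of its probes. The brighter of its 2 probes (chromosome 14, 62097179 to 62097238, plus strand) had 14.39 and 14.46 in the knock-out pools and 14.46 and 14.40 in the wild-type pools. Its log2 ratios were -0.06 and 0.06. The dimmer probe (62099404 to 62099463), which lies downstream and carried no scaled-up channel, had 7.84 and 7.59 in the knock-out pools and 7.97 and 7.40 in the wild-type pools. Its mean log2 ratio was 0.03 ± 0.22 (SD, n = 2), so both probes gave values overlapping between the genotypes.

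Cathepsin Z, a carboxypeptidase, had small positive means by both of the probes printed above. Probe 1 had 14.08 and 14.30 in the knock-out pools and 14.19 and 14.01 in the wild-type pools, with log2 ratios of -0.10 and 0.29. Probe 2 had 14.11 and 14.22 in the knock-out pools and 14.02 and 13.93 in the wild-type pools, with ratios of 0.09 and 0.29 and a mean of 0.19 ± 0.14 (SD, n = 2). The knock-out values lay above both wild-type values by probe 2 and overlapped them by probe 1. On array 2 the probes gave the same ratio to 2 decimals.

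Cathepsin L, which cuts the invariant chain in thymic epithelium, gave 10.61 and 10.47 in the knock-out pools, against 10.60 and 10.65 in the wild-type pools. The mean log2 ratio was -0.08 ± 0.14 (SD, n = 2). No channel of this probe was scaled up, and the genotypes overlapped.

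Cathepsin D was slightly lower in the knock-out by both probes. The brighter probe (chromosome 7, 142185447 to 142185506, minus strand) had 11.65 and 11.40 in the knock-out pools and 11.90 and 11.43 in the wild-type pools. Its log2 ratios were -0.25 and -0.03. The other probe (142186113 to 142186266, a match interrupted in the genome) had 9.497 and 9.38 in the knock-out pools and 9.60 and 9.60 in the wild-type pools, with ratios of -0.10 and -0.22. The genotypes overlapped by the brighter probe, though its ratio was below 0 on both arrays, and did not by the other. The means were -0.14 ± 0.16 and -0.16 ± 0.09 (SD, n = 2 each), which is 0.906 and 0.894 of the wild type. On the deposited value table the brighter probe was at -0.24 and 0.0048, so its lower value rested on array 1.

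Legumain had 13.33 and 12.95 in the knock-out pools, against 13.34 and 12.62 in the wild-type pools. Its log2 ratios were -0.01 and 0.33, with a mean of 0.16 ± 0.24 (SD, n = 2). On the deposited value table both were positive, 0.10 and 0.27.

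Lamp1 had the smallest spread of ratios of the 12 probes. Its level was 13.68 and 13.43 in the knock-out pools, against 13.72 and 13.40 in the wild-type pools. The log2 ratios were -0.04 and 0.03, and their mean was -0.0021 ± 0.05 (SD, n = 2). On the deposited value table they were -0.02 and -0.01.

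Of the 9 genes, each by its brightest probe, 0 were among the 18 called, beside 0.102% of all genes. Ifi30 alone was higher on both arrays, beside 24.2% of all genes, and Ctsd alone was lower on both, beside 30.0%. The other 7 had opposite signs. The deposited value table put 3 members higher on both arrays (Ifi30, Ctss and Lgmn), beside 27.5% of all genes, and 2 lower on both (Ctsh and Lamp1), beside 28.4%. For Ifi30, Ctss and Ctsh these deposited values differ from the scanner program's own ratios, by which Ctss and Ctsh had opposite signs. Ifi30 was the 1 member at least 1.5-fold higher on both arrays, beside 0.254% of all genes. By the deposited values 0 members were, beside 0.662% of all genes: Ifi30 lay just under that size on array 1 (log2 ratio 0.58). These counts describe genes selected on this contrast. The median of the 9 means was 0.09, against -0.01 for all genes, and -0.02 against 0.00031 on the deposited value table.

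The 6 member probes without a scaled-up channel (those of Ctsl, Ctsd, Lgmn and Lamp1 and the dimmer Ctsb probe) had means from -0.16 to 0.16 and single ratios from -0.25 to 0.33. Apart from Ifi30, Ctss and Ctsh, no member by its brightest probe had a mean outside that range.

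**Figure D3:**
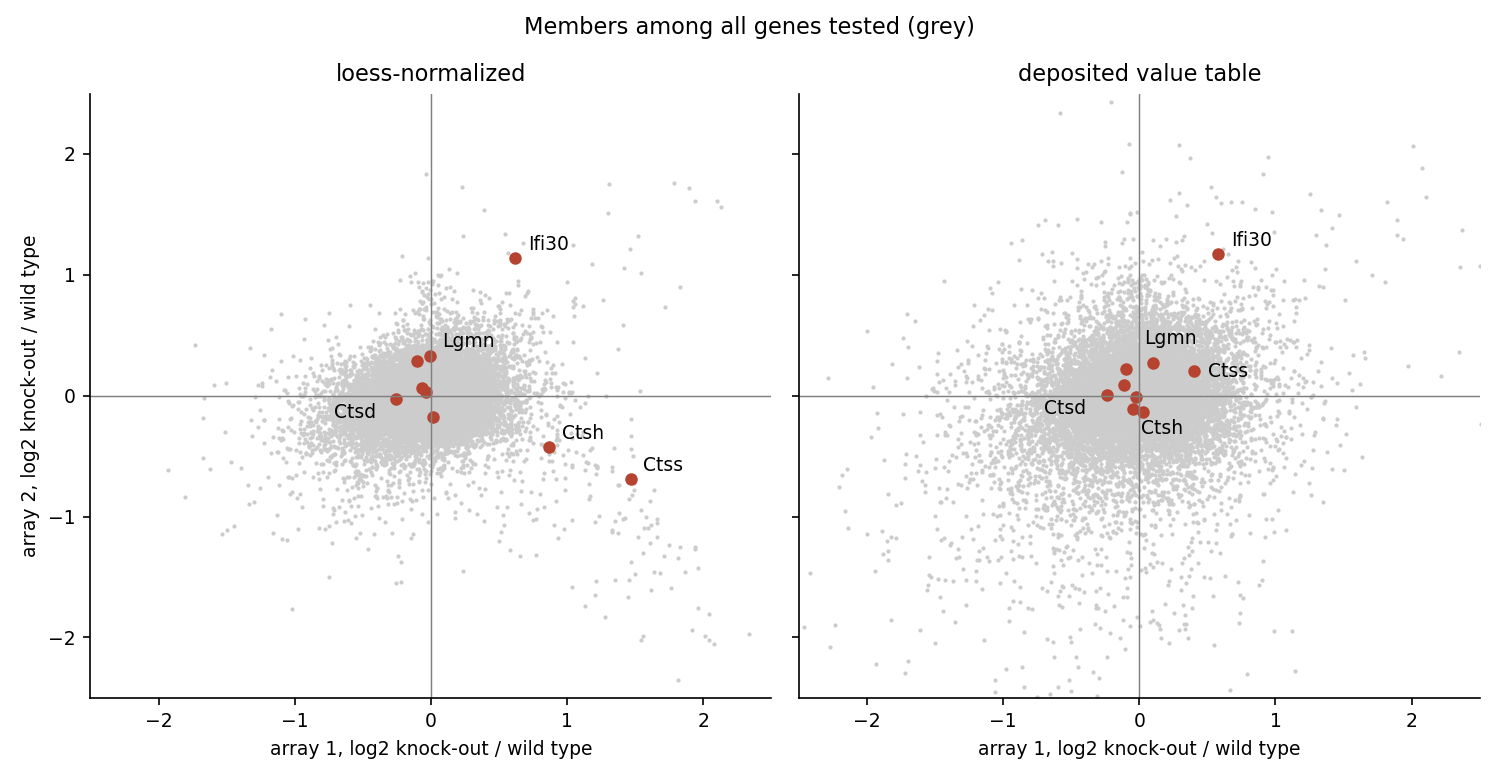
Log2 ratios of knock-out over wild type on array 1 (horizontal axis) and array 2 (vertical axis) for all genes tested (grey) and the 9 members (red), from loess-normalized intensities (left) and from the deposited value table (right). The axes end at 2.5, which leaves out 3 genes on the left and 43 on the right. Ifi30 lies in the upper right quadrant of both panels, while Ctss and Ctsh lie in the lower right quadrant of the left panel only.

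The genes whose pair of ratios came nearest to that of Ifi30 were looked up among the 903 named genes within 1 log2 unit of its intensity, by Euclidean distance over the 2 arrays. The nearest was Scpep1, a serine carboxypeptidase (0.71 and 0.87, distance 0.29). It was followed by H2-DMa, a chain of the class II peptide editor (0.50 and 0.74, distance 0.42), and by the chemokine receptor Ccr6 (0.36 and 0.79, distance 0.44). Next came Igtp, an interferon-inducible GTPase (0.75 and 0.71, distance 0.45), and Psmb9, a subunit of the immunoproteasome (0.34 and 0.68, distance 0.54). Each of the 5 was higher in the knock-out on both arrays, which the choice by likeness fixes, and each had at least 1 channel scaled up. The likeness rests on 2 arrays.

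Other lysosomal genes were read from 7 lists with 108 genes in all, of which 99 were tested. Of these 0 passed limma's adjusted p of 0.05 in either direction, beside 0.102% of all genes. At an unadjusted limma p of 0.05, 4 of the 99 were higher, beside 3.15% of all genes, and 4 lower, beside 5.97%. The smallest adjusted p was 0.158. On both arrays 24 of the 99 were higher, beside 24.2% of all genes, and 30 lower, beside 30.0%. The other 45 had opposite signs, beside 45.8% of all genes. Their median log2 ratio was -0.02, against -0.01 for all genes.

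Among 13 tested peptidases outside the 9 members, the median log2 ratio was 0.0042. Scpep1 had 15.49 and 15.61 in the knock-out pools, against 14.78 and 14.74 in the wild-type pools, and the groups did not overlap. Its log2 ratio was 0.79 ± 0.13 (SE of the fit, n = 2) with a limma adjusted p of 0.158, and a second, dimmer probe gave 0.62 on both arrays. Scpep1 lies on chromosome 11 (88740122 to 88740181 on mm8), 10.2 Mb from Ccr7, in a region that can carry sequence of the donor strain of the targeted allele. A difference of strain and the loss of Ccr7 cannot be told apart for it. The same holds for every gene here, because the knock-out and wild-type mice carry different strain names. Igtp also lies on chromosome 11, 40.9 Mb from Ccr7. None of the 9 members lies on that chromosome, which does not free them of this limit.

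Ctse, the aspartic protease cathepsin E, was the lowest of that list. It had 10.90 and 10.35 in the knock-out pools, against 11.64 and 10.80 in the wild-type pools, with log2 ratios of -0.75 and -0.44 and a limma adjusted p of 0.255. Ctsw, a cathepsin of cytotoxic lymphocytes and named here after its value was seen, had -0.77 and -0.36 and a limma adjusted p of 0.312. Its level was 6.57 and 6.56 in the knock-out pools, against 7.34 and 6.92 in the wild-type pools. Only 3 channels of Ctsw were well above background. T-cell and NK-cell markers are given beside it. The summed level of 11 T-cell markers was 4072 and 3412 in the knock-out pools, against 4051 and 3957 in the wild-type pools. Of the 10 tested, 5 were lower on both arrays, beside 30.0% of all genes. Only 1, Cd8b1, the brightest of them, was higher on both, beside 24.2%, and the list median was -0.19. At an unadjusted limma p of 0.05, 4 were lower, beside 5.97% of all genes, and 0 of the list passed after adjustment. The 4 were Cd3d (-0.56 and -0.63), Thy1 (-0.93 and -0.63), Il7r (-0.48 and -0.51) and Cd8a (-0.52 and -0.25). Il7r was well above background in 2 channels only and Cd8a in 3. The summed level of 7 NK-cell markers was 811 and 728 in the knock-out pools, against 904 and 847 in the wild-type pools. Ncr1, Eomes and Gzma were well above background in no channel and still entered that sum, so part of it is background. Of the 4 tested, 2 were lower on both arrays, beside 30.0% of all genes, and 2 had opposite signs. Klrd1, a receptor chain of NK cells, had -0.41 and -0.74, and Nkg7 had -0.19 and -0.32. Klrb1c had -0.02 and 0.03, and Klrk1 had -0.05 and 0.27. The part of T cells and NK cells in the Ctsw value was not tested.

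The cystatin list, inhibitors of the papain-family cathepsins, had 4 tested members of 9 and a median log2 ratio of -0.04. Cst3, the secreted cystatin C, had 14.27 and 14.58 in the knock-out pools, against 14.74 and 14.80 in the wild-type pools. Its log2 ratios were -0.47 and -0.22, with a limma adjusted p of 0.505. Csta1, Stfa2 and Stfa2l1 were well above background in no channel.

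The proton pump that acidifies the lysosome was read through 17 tested V-ATPase subunits of 18, with a median of 0.09. Of these 8 were higher on both arrays, beside 24.2% of all genes, and 2 lower on both, beside 30.0%. Atp6v1c1 had ratios of 0.30 and 0.51 and Atp6v1e1 0.17 and 0.54, with limma adjusted p of 0.409 and 0.528. The other probe of Atp6v1e1 gave -0.02 and 0.46. None of these values passed the threshold.

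The other lists lay near 0. The 29 tested genes of the list of lysosomal hydrolases outside the proteases had a median of -0.03. That list also holds proteins that are not hydrolases themselves, among them Psap, Npc2 and Gm2a. Psap, the precursor of the saposins, had ratios of -0.35 and -0.52 (limma adjusted p 0.358), while its dimmer probe gave 0.10 and -0.55. Idua, an enzyme that breaks down glycosaminoglycans, had 0.42 and 0.14 (limma adjusted p 0.61). The 16 tested membrane proteins other than Lamp1 had a median of -0.0080, with Laptm4b at 0.27 and 0.32 (limma adjusted p 0.549) and Slc11a2, an iron transporter, at -0.36 and -0.17 (limma adjusted p 0.621). Dimmer probes of Slc11a2 gave means of 0.09 and -0.02.

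The 16 genes of mannose 6-phosphate and lysosomal sorting had a median of -0.05, with Igf2r, a mannose 6-phosphate receptor, at -0.19 and -0.15 and Vps18 at -0.16 and -0.16. Dimmer probes of Vps18 gave means of -0.02 and 0.04. The limma adjusted p were 0.796 for Igf2r and 0.816 for Vps18. The MiT/TFE factors, transcription factors of lysosomal genes, had a median of -0.06 over 4 genes, with Mitf at -0.20 and -0.06 and Tfeb at -0.0045 and -0.11. Their limma adjusted p were 0.877 for Mitf and 0.969 for Tfeb.

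**Figure D4:**
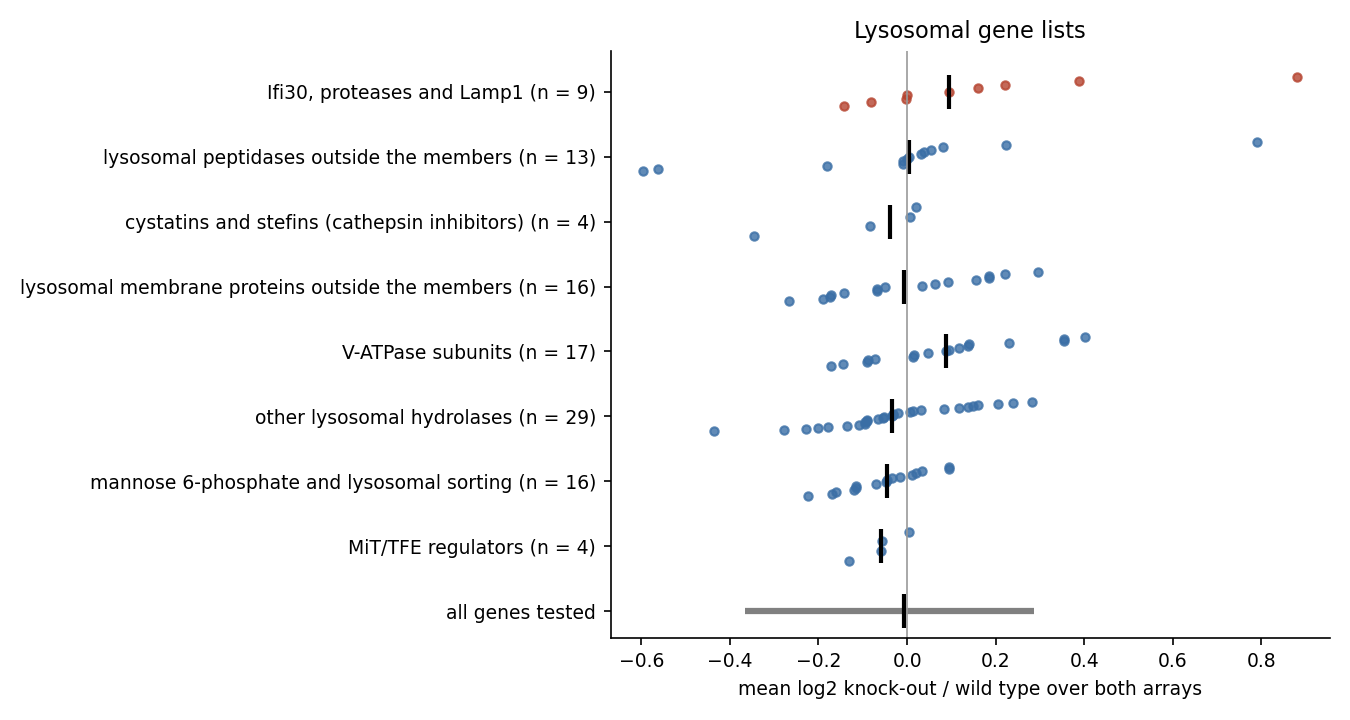
Mean over both arrays of the log2 ratio, knock-out over wild type (horizontal axis), for the 9 members (red) and for the tested genes of 7 lysosomal lists (blue), with a black bar at each median, and for all genes tested a grey bar between the 5th and 95th percentile (-0.37 to 0.29). Ifi30 (0.88) and Scpep1 (0.79) are the points farthest to the right.

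Cathepsins and Ifi30 are abundant in macrophages and dendritic cells, so the markers of these cells are given beside the members. Of 23 such markers 16 were tested, 13 were well above background in all channels, and Mertk, Clec9a, Siglech, Ccr2 and Vsig4 were so in none. The summed level of the list was 12506 and 9305 in the knock-out pools, against 7503 and 12471 in the wild-type pools. The sum was higher in the knock-out on array 1 and lower on array 2, as was its brightest gene, Lyz2, the lysozyme of myeloid cells (log2 ratios 1.22 and -0.60). Of the 16 tested, 5 were higher on both arrays, beside 24.2% of all genes, and 2 lower on both, beside 30.0%. The other 9 had opposite signs, beside 45.8%, and the list median was 0.09 on array 1 and 0.03 on array 2. Higher on both were C1qa (0.48 and 0.10), C1qb (0.25 and 0.09) and Fcgr1 (0.10 and 0.30). Xcr1 (0.31 and 0.14) and Itgax (0.10 and 0.03) were so too. The 2 lower on both were Adgre1, a surface receptor of macrophages (-0.29 and -1.14), and Batf3 (-0.06 and -0.22). The part of these cells in the members' values was not tested.

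Plasma cells are the antibody-secreting state of the B lineage. The summed level of 7 plasma cell markers was 51711 and 54505 in the knock-out pools, against 45180 and 45100 in the wild-type pools. Most of each sum came from the brightest of them, Mzb1. Its level was 15.39 and 15.30 in the knock-out pools, against 15.20 and 15.14 in the wild-type pools, with log2 ratios of 0.19 and 0.16. Of the 6 tested, Jchain passed (1.81, 1 of the 12 genes called higher, which were 0.0679% of all). On both arrays 3 were higher, beside 24.2% of all genes, and 2 lower, beside 30.0%. The list median was -0.02. Sdc1 (-0.13 and -1.15) and Irf4 (-0.35 and -0.07) were the lower ones, and Xbp1 (0.55 and 0.85) was higher. Prdm1 had opposite signs (-0.59 and 0.10). The part of these cells in the members' values was not tested.

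The regions before the genes' starts were read for motifs as a feature that did not enter the choice of members. RefSeq windows of 300 bases, 250 before to 50 after the start on GRCm38.p6, were matched for 7 of the 9 members (8 windows, 2 of them of Lgmn), while Ctsb and Ctsh were not matched. The E-box CACGTG, the core of the element bound by the MiT/TFE factors, occurred in 5 of the 8 windows (Ifi30, Ctsl, Ctsd, Lamp1 and 1 of Lgmn), against 7.17% of 32544 distinct promoter windows. Both strands were searched, and this motif reads alike on both. The window of Lamp1 held 4 E-boxes and that of Ctsd 2.

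A form of the interferon-stimulated response element, GAAA repeated after any 2 bases, occurred in the windows of Ctss and Lamp1 and in 3.45% of all windows. The motif TTCNNNGAA, bound by STAT factors, occurred in 0 of the 8 windows and in 8.33% of all. CCAAT occurred in those of Ctsz and 1 of Lgmn and in 37.4% of all. No 2 of these motifs overlapped in the stretches printed here. The 250 bases before the start of Ifi30 (chr8:70766664-70766913, minus strand), Lamp1 (chr8:13158911-13159160, plus strand) and Ctss (chr3:95526536-95526785, plus strand) are shown with every match to these motifs in capitals. They stand for the gene with the difference, the gene with the most E-boxes and the cathepsin with a response element.
Ifi30: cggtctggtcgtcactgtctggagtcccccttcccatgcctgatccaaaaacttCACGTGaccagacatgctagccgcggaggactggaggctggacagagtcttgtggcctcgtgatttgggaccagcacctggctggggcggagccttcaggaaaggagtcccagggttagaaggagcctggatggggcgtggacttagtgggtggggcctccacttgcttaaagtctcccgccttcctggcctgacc
Lamp1: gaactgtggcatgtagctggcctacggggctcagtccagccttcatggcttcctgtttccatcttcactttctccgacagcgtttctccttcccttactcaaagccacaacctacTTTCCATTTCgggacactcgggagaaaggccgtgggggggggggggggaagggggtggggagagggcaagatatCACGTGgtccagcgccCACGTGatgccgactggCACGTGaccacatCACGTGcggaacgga
Ctss: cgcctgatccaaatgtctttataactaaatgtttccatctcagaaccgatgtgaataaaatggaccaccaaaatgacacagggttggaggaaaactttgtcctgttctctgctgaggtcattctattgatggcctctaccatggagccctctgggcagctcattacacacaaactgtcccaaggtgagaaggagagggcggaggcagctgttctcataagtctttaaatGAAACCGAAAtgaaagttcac

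Counted from the gene's start, the E-box of Ifi30 begins at -196 and the 4 of Lamp1 at -61, -45, -28 and -15. The response element of Ctss begins at -21. Ifi30 and Lamp1 both hold E-boxes and had mean log2 ratios of 0.88 and -0.0021. A match of letters is a description of these windows and says nothing about binding in these cells.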

How the data were processed

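RNA was hybridised to 2 two-colour arrays with swapped dyes (20 ng of total RNA per condition, per the labels' protocols). The deposited intensity values are the output of Agilent Feature Extraction 9.5.3.1 (per the submitters' processing notes): mean spot intensity and median local background in each colour, with probe positions on mm8. Per the file headers, that program also subtracted background, normalized the dyes and wrote the log10 of Cy5 over Cy3. The deposited value table holds log2 ratios. With the knock-out put on top, it equalled the scanner's ratio within 0.001 at 42512 and 42515 of 43379 spots, and the other 867 and 864 carried the low-gain flag. The sources used here do not say how those values arose.

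From the intensities, the background was corrected by normexp (offset 50, which shrinks ratios of dim probes), then each array went through loess (span 0.3, 4 iterations; the 1639 control spots had weight 0). limma 3.58.1 and R 4.3.3 were used. Outlier-flagged spots were dropped, spots of a probe averaged, and a probe kept where 1 genotype was well above background on both arrays. The brightest probe stood for a gene. Names came from RefSeq accessions (24375 probes), symbols (6301) or synonyms (2426), and 8072 kept the file's name. Ratios were fitted with lmFit and eBayes (+1 or -1 by dye), with 1 residual and 6.19 prior degrees of freedom, two-sided, adjusted by Benjamini-Hochberg over 17683 genes. The number of arrays limits the precision. The fit was tested on simulated data. Members, lists, tests and alternatives were chosen with earlier results of these data known. Genes named are the members, up to 4 called members of each list or else the 2 largest with 1 sign on both arrays, and the 5 genes most like Ifi30, while Ctsw and the cell type markers given with ratios were chosen after their values were seen. Alternatives covered background, normalization, probe filter, probe summary, prior, channels and the deposited table.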

Additional observations from a re-analysis of the deposited data

How the results depend on the processing

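Without within-array normalization and with median centring, the median of all genes lay at -0.39 and -0.17. Relative to it, Ifi30 was at 0.75 in both, while Ctsb, Lamp1 and Ctsz turned to -0.10, -0.10 and -0.01. As computed there, Ifi30 had 0.36 and 0.58, Ctss -0.13 and 0.09, and Ctsh -0.27 and -0.05. In each setting that kept Ifi30 its mean was above 0, and on single arrays 0.62 and 1.14. It has no value without scaled-up genes. The median over members (0.09) was 0.061 with the log ratio of the scanner program, -0.015 on the deposited value table, -0.19 with median centring, -0.41 with no within-array normalization, 0.14 with the mean of all probes and -0.0021 without scaled-up genes (4 members by their brightest probe and Ctsb by its dimmer one). It ranged from -0.0095 to 0.031 when 1 array was left out. The median over the 99 other lysosomal genes (-0.02) was -0.26 with median centring, -0.47 with no within-array normalization and -0.0048 without the filter on dim probes, and lay between -0.02 and -0.0084 when 1 array was left out.

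The 18 genes called (12 higher, 6 lower) became 0, with 0 in each direction, on the deposited value table, with the log ratio of the scanner program, without background subtraction, with no within-array normalization, with the mean of all probes, and with separate channels and no replicate block. They became 4 with median centring (3 higher, 1 lower), 9 where all 4 channels had to be above background (9 higher, 0 lower), 31 with each probe tested by itself (18 higher, 13 lower), 78 when the prior was robust and followed intensity (30 higher, 48 lower) and 130 without scaled-up genes (45 higher, 85 lower). A fit with 1 array left out has no residual degree of freedom and gave no count. The replicate number is the array, and each ratio is already within it, so the fit with no replicate block is the separate-channel one. Signal over background limits the dimmer Ctsb probe most.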
